A study of Mus musculus with 6 samples.

Results

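The Hox cluster genes were taken as every row of the deposited count table whose symbol is Hox followed by a, b, c or d and a number. This rule found 39 of the 22609 genes in the table, which is the full mouse set of 4 clusters. RNA came from cells captured by laser, by their morphology, from the articular zone and the mature zone of the mandibular condyle, the cartilage-covered head of the lower jaw in the temporomandibular joint, of CD-1 mice at postnatal day 7. No group carried a mutation or a treatment. Values were used from 5 libraries of poly(A) RNA, articular zone (az) replicates 2, 3 and 4 and mature zone (mz) replicates 2 and 3. Each library was a pool of captured sections that the labels call a biological replicate. The sources used here do not give the number of animals behind a pool, so p-values measure the spread between pools. A lower level in such a pool can stand for fewer cells of a type or for less RNA per cell, and these cannot be told apart.

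Hox genes encode homeodomain transcription factors that give cells their position along the head to tail axis. They lie in 4 clusters in which the order of the genes follows the order of their expression domains, with low paralog numbers used toward the head and high numbers toward the tail and the ends of the limbs. Neural crest cells of the first pharyngeal arch, which form the lower jaw, are known as a Hox-negative population, whereas the mesenchyme of limb joints keeps a Hox code from its limb bud. Hox proteins bind DNA together with Pbx, Meis and Pknox proteins of the TALE class, retinoic acid switches on the genes with low numbers, and Polycomb complexes keep silent clusters off.

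Total counts were 15449883 to 18884685 per az library and 15555620 to 16302047 per mz library, and at least 1 count was found for 59.9% to 64.8% of all genes in az libraries and for 54.7% to 58.0% in mz libraries. Cartilage markers were checked against the labels. Hapln1, Acan, Sox9 and Matn1, all genes of cartilage matrix or its regulation, were called lower in az by edgeR's quasi-likelihood test (adjusted p = 0.00522 to 0.0327), and these were 4 of 9 tested members of the list, against 1.85% of all tested genes called lower. Without az replicate 4 none of the 4 kept its call (adjusted p = 0.0591 to 0.122), and Matn1 also lost it without az replicate 2 or 3 (0.0885 and 0.0892). Type II collagen, Col2a1, had 875, 8602 and 8121 reads in az and 163765 and 291625 in mz, with no overlap and an adjusted p of 0.0896.

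Nearly the whole Hox complement was silent in both zones. Of the 39 genes, 34 (87.2%) had 0 counts in all 5 libraries, against 28.0% of all genes in the table. In az, 34 of 39 genes had 0 counts in all 3 libraries (87.2%, against 29.6% of all genes). In mz, all 39 had 0 counts in both libraries (100%, against 38.8% of all genes). Of the 195 values of these genes, 190 were 0. The 5 values above 0 fell in 5 different genes, and no Hox gene had a read in more than 1 library.

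The silent genes covered each cluster and the whole range of paralog groups. They were 10 of the 11 genes of the Hoxa cluster, among them Hoxa2, Hoxa10, Hoxa11 and Hoxa13, and Hoxb1, Hoxb2, Hoxb4, Hoxb5, Hoxb6, Hoxb7, Hoxb8, Hoxb9 and Hoxb13 of the Hoxb cluster. All 9 genes of the Hoxc cluster were silent, from Hoxc4 to Hoxc13. In the Hoxd cluster, Hoxd1, Hoxd9, Hoxd10, Hoxd11, Hoxd12 and Hoxd13 were silent. Among these are Hoxa2, the selector of the second arch whose loss turns second arch skeleton into jaw-like skeleton, and Hoxa11, Hoxd11, Hoxa13 and Hoxd13, which pattern the limb. The genes of paralog groups 1 and 2, which mark the hindbrain and the second arch, had no read (0 of 5 detected), and neither had those of groups 9 to 13 (0 of 16 detected). The 5 detected genes were among the 18 of groups 3 to 8, which pattern the neck and the trunk.

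**Figure D1:**
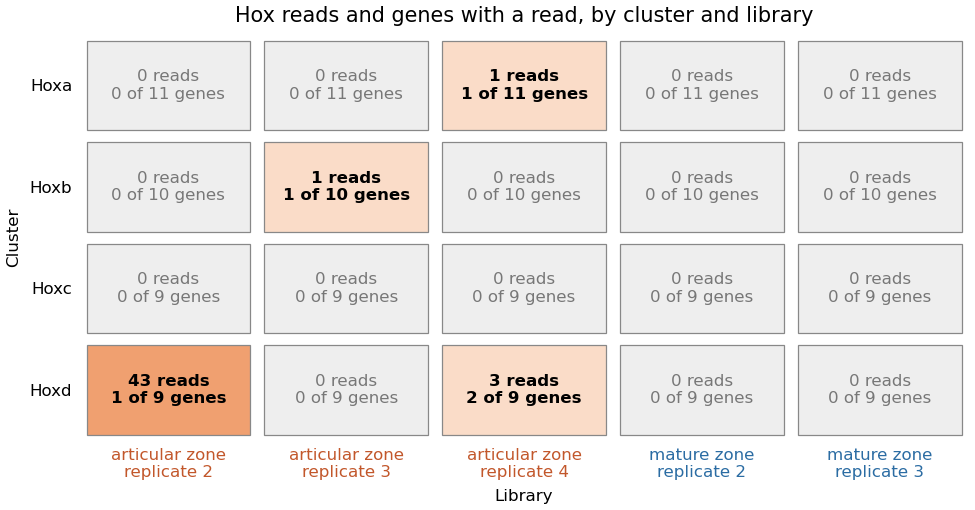
Summed reads of each Hox cluster (rows) in each library (columns, the 3 az libraries left of the 2 mz libraries), with the number of its genes that had a read; grey boxes hold 0 reads. The box of the Hoxd cluster in az replicate 2, with 43 reads of 1 gene, is the only one above 3 reads, and all boxes of both mz libraries are at 0.

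Hoxd8 was the only Hox gene with more than 2 reads. It is a trunk gene of the middle of the Hoxd cluster and lies at chr2:74704615-74707933 on the plus strand of GRCm38 (mm10). It had 43, 0 and 0 reads in az replicates 2, 3 and 4, and 0 and 0 reads in the mz libraries. In deposited FPKM, a level per gene length, it was at 0.684 in az replicate 2 and at the lowest deposited value of 0.1 in the other 2 az libraries and in both mz libraries. All of its signal thus came from az replicate 2. Over the 3 az libraries together its level was 0.810 CPM (counts per 1000000 reads) on the TMM scale, at least 7.91-fold higher than the 0.102 CPM that 3 counts over both mz libraries would give, and without az replicate 2 it was 0. Its exons share no base with another gene of the table.

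The sequence in front of Hoxd8 is shown because it is the only Hox gene whose reads went beyond 2. It is the 250 bases up to the start of the gene from the RefSeq promoter table, chr2:74704365-74704614 on the plus strand of GRCm38.p6, 5′ to 3′. None of these bases lies in an exon of a gene of the count table. Capitals mark the homeodomain core TAAT on either strand (TAAT or ATTA).
Hoxd8 upstream: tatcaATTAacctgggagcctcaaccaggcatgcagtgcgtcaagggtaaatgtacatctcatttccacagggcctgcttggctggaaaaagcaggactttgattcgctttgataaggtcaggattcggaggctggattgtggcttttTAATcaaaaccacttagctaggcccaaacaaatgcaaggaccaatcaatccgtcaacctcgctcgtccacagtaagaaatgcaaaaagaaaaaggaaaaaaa
The window holds 2 such matches. Of 32851 upstream windows of the same length, 54.9% hold at least 1 match and 30.8% hold at least 2, with a median of 1.

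The other 4 detected genes had 1 or 2 reads each, all in az. Hoxb3, a gene of the hindbrain and the posterior pharyngeal arches at chr11:96307101-96347930, had 0, 1 and 0 reads in az replicates 2, 3 and 4, and 0 and 0 reads in mz. The remaining 3 had their reads in az replicate 4. Hoxd4, which patterns the hindbrain and the cervical vertebrae, had 2 reads there, at chr2:74721978-74729160. Hoxd3, a gene of the cervical vertebrae at chr2:74711993-74748271, had 1, and Hoxa5, a gene of the neck, the upper thorax and the lung at chr6:52201754-52204587, had 1. Each of the 3 was at 0 in az replicates 2 and 3 and in both mz libraries, and all 4 genes were at the lowest FPKM in every library. These levels were under the 3 counts used here as the limit of a zero.

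Hoxd3 and Hoxd4 overlap on the genome, and 9.26% and 13.2% of their exon bases are shared with each other or with 1700109F18Rik, which had 0 reads. No source used here says whether the counting used strand, so a read in the shared stretch cannot be assigned. Of the 39 genes, 31 share no exon base with another gene of the table, and the largest shared part was 35.0% in Hoxa11, with its antisense RNA Hoxa11as.

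Summed over the 39 genes, Hox reads made up 48 of 81983095 reads. The sum was 43, 1 and 4 reads in az replicates 2, 3 and 4, and 0 and 0 in mz. In CPM of the raw library total this was 2.72 (95% exact binomial interval 1.97 to 3.67), 0.0647 (0.00164 to 0.361) and 0.212 (0.0577 to 0.542) in az, against 0 in mz replicate 2 (up to 0.226) and 0 in mz replicate 3 (up to 0.237). Az replicate 2 thus stood above the 4 other libraries, and the intervals of these 4 overlap. A count of 0 for a gene allowed up to 0.190, 0.194 and 0.159 CPM in the az libraries and up to 0.184 and 0.193 in the mz libraries. Intervals and limits cover counting error only, since the reads carry no molecular identifiers and copies made by PCR are not independent molecules.

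The difference between the zones rested on az replicate 2. The az libraries held 48 Hox reads in 50125428, or 0.958 CPM (exact Poisson interval 0.706 to 1.27), and the mz libraries 0 in 31857667 (up to 0.116). Without az replicate 2, the az libraries held 5 in 34334568, or 0.146 CPM (0.0473 to 0.340), which overlaps the mz interval. This overlap does not decide whether the zones differ in the other 2 az libraries, and no test was run on these sums. As the mean of the libraries, the summed level on the TMM scale was 0.914 ± 1.36 CPM in az (SD, n = 3) and 0 ± 0 CPM in mz (SD, n = 2), so that the SD in az was larger than the mean.

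No Hox gene could enter the test between the zones. None of the 39 had at least 10 counts in at least 2 libraries, a filter that 58.0% of all genes passed, so 0 were tested and 0 called. Across the 13119 genes tested, 393 (3.00%) were called at an adjusted p under 0.05, of which 150 (1.14%) were higher and 243 (1.85%) lower in az. Having a read in az and none in mz was not rare in the table, since 10.7% of all genes showed it, beside 5 of 39 Hox genes. With no low count filter, edgeR's quasi-likelihood test could fit the 5 detected genes and called none, with 0 at an unadjusted p under 0.05. Hoxd8 had a fitted log2 fold change of 6.77 (SE 4.15, adjusted p = 0.442), whose size depends on the prior count, and the other 4 had adjusted p-values of 0.650 to 0.708. DESeq2 without the filter gave Hoxd8 an adjusted p of 0.422 and called 0 Hox genes, again with 0 at an unadjusted p under 0.05.

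Genes with as many reads as Hoxd8 in a single library and none elsewhere were most common in az replicate 2. In that library, 70 genes, Hoxd8 among them, had at least 43 reads and 0 in the other 4 libraries, which is 0.310% of all genes. The same count was 12 and 42 in az replicates 3 and 4, and 17 and 17 in the mz libraries. Hoxd8 was thus 1 of a group of genes with this pattern.

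Markers of other cell types were also high in az replicate 2. The skeletal muscle list summed to 1466, 44.9 and 26.3 CPM in az replicates 2, 3 and 4. In mz replicates 2 and 3 it summed to 1233 and 95.7 CPM. Of its 12 genes, 11 were tested and 0 called, against 3.00% of all tested genes. Acta1, the actin of skeletal muscle, had 8798, 223 and 111 reads in az and 6020 and 293 in mz. Myod1, which defines muscle precursors, was at 0 in all 5 libraries. Myog, of the same list, had 21, 0 and 0 reads in az and 39 and 0 in mz. Mz replicate 2 was thus also high in muscle genes. The hematopoietic list (9 genes, 1 at 0 throughout) summed to 361, 67.3 and 313 CPM in az and 63.0 and 42.5 CPM in mz, and the endothelial list (8 genes) to 122, 10.6 and 94.8 CPM in az and 17.5 and 0.142 CPM in mz. Both were higher in az replicates 2 and 4 than in az replicate 3. Cd34, a surface protein of blood progenitors, vessels and fibroblasts, rose in az (log2 fold change 2.70, SE 0.56, adjusted p = 0.0464), and Emcn, a sialomucin of small vessels, had 377, 68 and 193 reads in az and 0 and 0 in mz (adjusted p = 0.0365, at least 117-fold higher). Without az replicate 2 their adjusted p-values were 0.159 and 0.178. Both calls were also lost without az replicate 4 or mz replicate 3, that of Cd34 without mz replicate 2 and that of Emcn without az replicate 3 (adjusted p = 0.0566 to 0.173). The Schwann cell and neuron list summed to 673, 404 and 596 CPM in az and 349 and 412 CPM in mz, and the osteoclast list to 569, 395 and 466 CPM in az and 408 and 189 CPM in mz. The osteoblast list was lowest in az replicate 2, with 369, 680 and 996 CPM in az and 938 and 665 CPM in mz. The erythroid list summed to 19.9, 2.09 and 2.76 CPM in az and 6.70 and 4.56 CPM in mz, with 5 of 7 genes at 0 counts in every library. Of these 5, the globin gene Hbb-b1 had deposited FPKM of 26.7, 4.41 and 22.9 in az and 3.47 and 2.12 in mz, so its 0 counts do not stand for an absence of blood RNA. The part of these cell types in the Hoxd8 reads was not tested.

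A zero in the count table need not mean a zero in the FPKM table, so both were read for the Hox genes. Of 6194 genes in both tables with 0 counts in all 5 libraries, 68 (1.10%) had an FPKM above 0.1 in some library. Msx1, a homeobox gene of jaw mesenchyme, was 1 of them, with 1.06, 0.1 and 0.273 FPKM in az and 0.1 and 0.1 FPKM in mz at 0 counts throughout. None of the 34 silent Hox genes was among the 68. In az replicate 2 the lowest FPKM of 0.1 corresponds to 6.29 reads of Hoxd8, so an FPKM of 0.1 does not exclude a few reads.

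Among the noncoding RNAs of the clusters found in the table, Mir10b alone had reads. Of 25 symbols in the list, 8 were in the table. Of these, 7 had 0 counts in every library (87.5%, against 28.0% of all genes), among them Hoxa11as, Mir10a, Mir196a-1, Mir196a-2, Mir196b and Mir615. Mir10b, the row of a microRNA encoded next to Hoxd4, had 0, 0 and 4 reads in az replicates 2, 3 and 4, and 0 and 0 reads in mz. These 4 reads were in the library that also held the reads of Hoxd4 and Hoxd3, whose spans on chromosome 2 include the hairpin. They came from poly(A) RNA and do not measure the mature microRNA. For the same reason, 0 counts in the other microRNA rows do not show that these microRNAs were absent. The mature sequences from RefSeq (GRCm38.p6) are given because the miR-10 and miR-196 families are encoded inside the Hox clusters, with the seed, bases 2 to 8 from the 5′ end, in capitals.
mmu-miR-10b-5p (chr2:74726074-74726096, Hoxd cluster): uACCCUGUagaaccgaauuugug
mmu-miR-10a-5p (chr11:96317186-96317208, Hoxb cluster): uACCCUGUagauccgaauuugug
mmu-miR-196b-5p (chr6:52230129-52230150, Hoxa cluster): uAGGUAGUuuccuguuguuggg
mmu-miR-196a-5p (chr11:96265187-96265208, Hoxb cluster, and chr15:102973365-102973386, Hoxc cluster): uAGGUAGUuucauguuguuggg
The miR-10 pair shares its seed and differs at 1 of 23 positions, and the miR-196 pair shares its seed and differs at 1 of 22.

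Genes around the clusters were read in both zones. The Hoxa cluster spans 105.5 kb of chromosome 6, Hoxb 173.9 kb of chromosome 11, Hoxc 115.7 kb of chromosome 15 and Hoxd 96.9 kb of chromosome 2, and their genes together had 1, 1, 0 and 46 reads. Within 500 kb of the 4 clusters lay 46 other protein-coding genes, a set chosen after values had been seen. Of these, 6 were at 0 in all 5 libraries, against 28.0% of all genes. At least 10 counts in every library were found for 27 of the 46, against 9996 of all 22609 genes, which include noncoding rows. The median of the 46 was 645 reads over the 5 libraries. The Hoxd cluster had Lnp at 88.8 kb on one side, with 3360 reads over the az libraries and 1764 over the mz libraries, and Mtx2, a protein of the outer mitochondrial membrane, at 60.7 kb on the other side, with 923 and 632 reads in az and mz. Cbx5, which encodes the heterochromatin protein HP1 alpha, lay 154.7 kb from the Hoxc cluster and had 5722, 3967 and 6050 reads in az and 5548 and 3252 in mz. Beyond the Hoxa cluster, Hibadh had 1598 reads over the az libraries and 851 over the mz libraries, and Tax1bp1 had 8468 in az and 5329 in mz. Homeobox genes next to the clusters were silent. Evx1 (52.6 kb from the Hoxa cluster) and Evx2 (6.71 kb from the Hoxd cluster), which have a homeobox and share long-range control with posterior Hox genes, had 0 reads in every library.

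**Figure D2:**
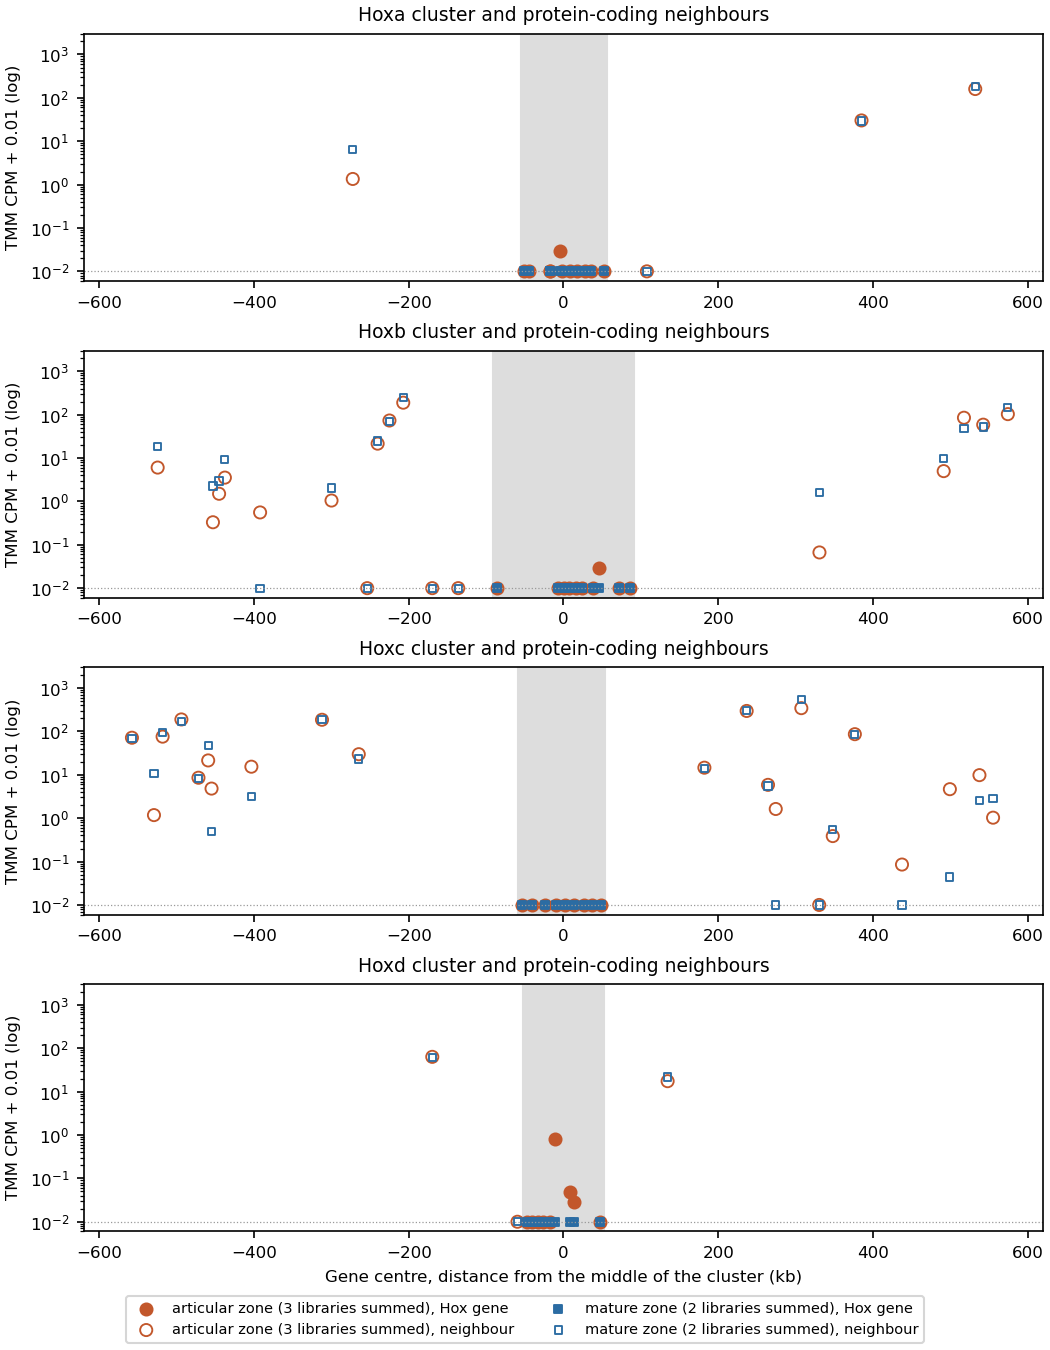
Level of each Hox gene (filled) and each protein-coding gene within 500 kb (open) against the distance of its centre from the middle of the cluster in kb, 1 panel per cluster; the vertical axis is TMM-normalized CPM over the summed libraries of a zone plus 0.01 on a log scale, circles are az, squares are mz, and the grey band covers the cluster. Points on the dotted line are at 0 reads: nearly all filled points lie there, while 27 of 46 neighbours had at least 10 counts in every library. Over the whole table, 9996 of 22609 genes had as many.

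In the list of 21 flanking genes found in the table, 4 were at 0 throughout and 16 were tested. Of the 16, 0 were called between the zones, against 3.00% of all tested genes. The list had a median log2 fold change of 0.09, against 0.07 over all tested genes. Its 2 most abundant members were Cbx5 (log2 fold change -0.02, adjusted p = 0.982) and Atp5g1, a subunit of ATP synthase, with 2898, 3625 and 3486 reads in az and 3603 and 3633 in mz (log2 fold change -0.38, adjusted p = 0.363).

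Other homeobox families ranged from silent to read throughout. These families were grouped by symbol after values had been seen and are given as a description. Against 34 of 39 Hox genes at 0 in every library, 0 of 6 Dlx genes were at 0. The Dlx genes had 6197 reads in az and 1806 in mz. The Nkx family came closest to the Hox genes, with 11 of 13 genes at 0 (84.6%), and 5 of 8 Lhx, 4 of 6 Irx and 9 of 15 Pou genes were at 0. Families with most genes at 0 were thus found outside the Hox clusters too. Of the 6 families compared, the Hox and the Nkx genes were those in which 0 genes had at least 10 counts in 2 libraries.

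Homeobox genes known from the jaw mesenchyme were read at higher levels than the Hox genes. Of 28 genes reported from this list, 4 had 0 counts in every library and 18 were tested. Of the 18, 0 were called between the zones, against 3.00% of all tested genes. With so few tested genes, 0 calls are not far from that share. Prrx1, a regulator of skeletal mesenchyme, had 7316, 4137 and 5710 reads in az and 2912 and 2209 in mz, with no overlap (323 ± 86.1 CPM in az, SD, n = 3, and 174 ± 23.9 CPM in mz, SD, n = 2; log2 fold change 0.89, SE 0.26, adjusted p = 0.112). Dlx5, which sets the lower jaw apart from the upper jaw, had 1457, 1480 and 2176 reads in az and 825 and 439 in mz (log2 fold change 1.16, SE 0.33, adjusted p = 0.106). Per gene length, Dlx5 had 54.6, 61.2 and 72.8 FPKM in az and 34.9 and 16 FPKM in mz, while the highest Hox value in any library was 0.684 FPKM. Of the 28 genes, 23 were above 0.1 FPKM in some library and 13 in all 5, compared with 1 and 0 of 39 Hox genes.

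**Figure D3:**
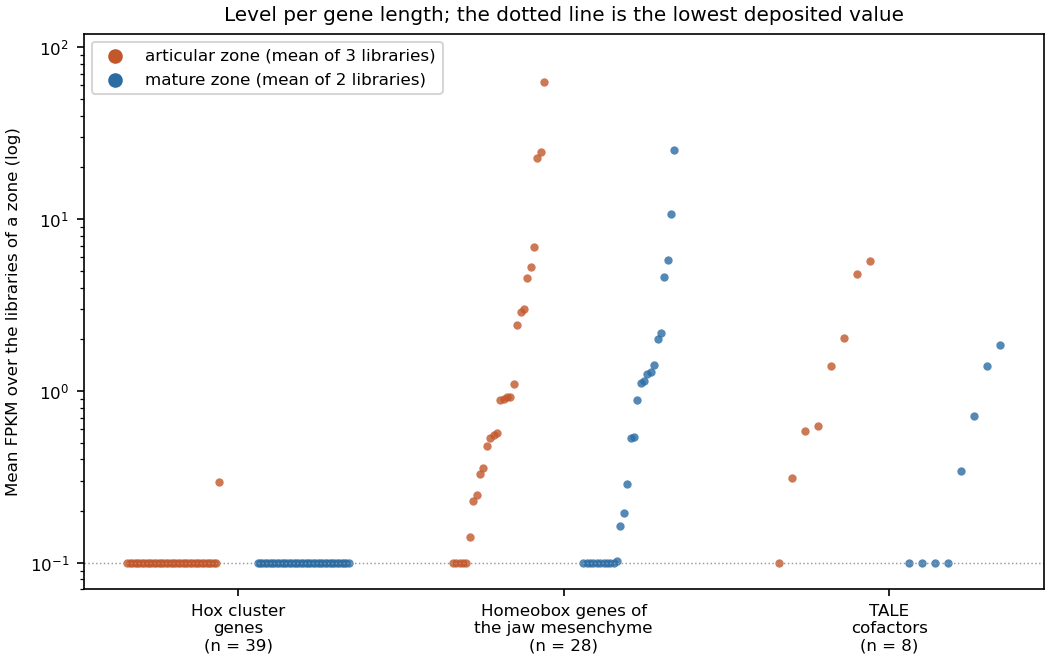
Mean FPKM of each gene over the 3 az libraries (left of each pair) and over the 2 mz libraries (right), on a log scale, for the 39 Hox genes, 28 homeobox genes of the jaw mesenchyme and 8 TALE cofactors; the dotted line is the lowest deposited value, 0.1, and genes within a set are sorted by level. All Hox genes lie on the line but Hoxd8 in az, whereas 10 jaw homeobox genes reached a mean of 1 FPKM in az and 11 in mz.

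Most genes of the cofactors that Hox proteins bind were read in both zones. Pbx4 had 0 reads in az and 1 read in mz. All 8 TALE genes reported here had a read in some library, and 7 were tested. Of these 7, 0 were called, against 3.00% of all tested genes. Pknox1 had 501, 805 and 755 reads in az and 452 and 59 in mz, and in CPM the zones overlapped (log2 fold change 1.21, adjusted p = 0.421). Pbx3 had 780, 269 and 725 reads in az and 84 and 214 in mz (32.8 ± 14.3 CPM in az, SD, n = 3, and 10.4 ± 6.88 CPM in mz, SD, n = 2; log2 fold change 1.66, SE 0.65, adjusted p = 0.206). Meis proteins form complexes with Pbx and Hox proteins on DNA. Meis1 had 201, 106 and 11 reads in az and 1 and 0 in mz (adjusted p = 0.128), and Meis2 had 90, 103 and 49 in az and 6 and 3 in mz (adjusted p = 0.215), so that neither was called although the zones did not overlap. The median log2 fold change of the 7 tested genes was 2.90, against 0.07 over all tested genes. This median is the value of Meis3 (SE 1.81, adjusted p = 0.431). The largest values, of Meis1 and Pknox2, rest on 1 read each in mz. How many of all genes separate the zones in this way was not counted. The 8 genes summed to 117, 97.8 and 89.8 CPM in az and 42.3 and 24.2 CPM in mz. Az replicate 2 was the highest library here too.

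**Figure D4:**
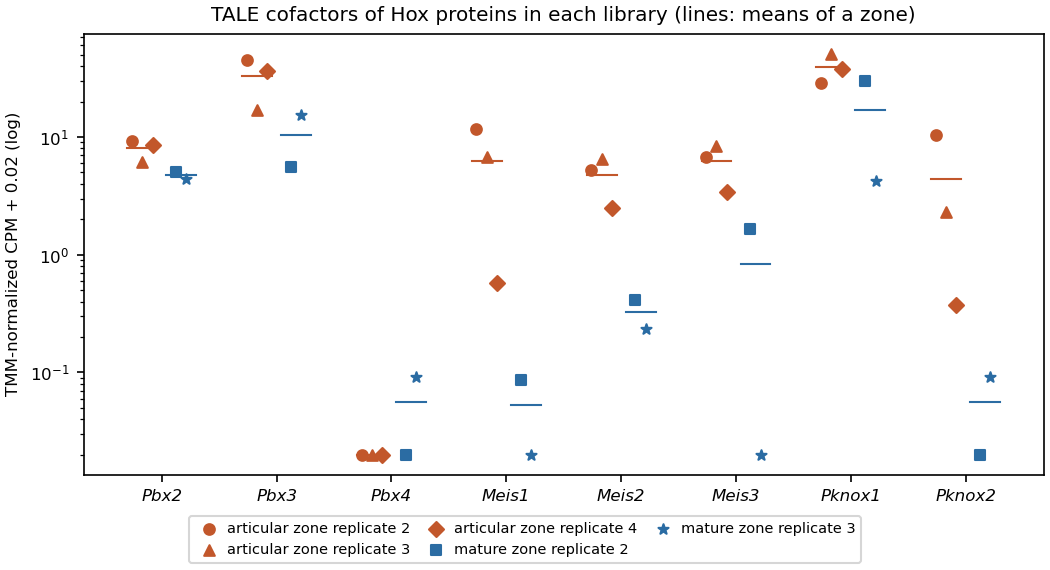
TMM-normalized CPM plus 0.02, on a log scale, of 8 TALE cofactor genes in each library; orange symbols left of each gene are the 3 az libraries, blue symbols right of it the 2 mz libraries, and lines are the means of a zone. Every az library lies above both mz libraries for each gene but Pknox1, which overlaps between the zones, and Pbx4, which has a single read.

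Most Polycomb and trithorax genes, whose products keep Hox clusters silent or active, were read in both zones. Cbx7 had 0 reads in mz, and Cbx2 and Cbx8 had 1 read each there. All 34 members in the table had a read in some library, 33 were tested, and 1 was called, a share close to the 3.00% of all tested genes. It was Rnf2, the ubiquitin ligase RING1B of Polycomb complex PRC1, with 796, 519 and 1141 reads in az and 91 and 127 in mz (45.3 ± 12.3 CPM in az, SD, n = 3, and 7.51 ± 2.17 CPM in mz, SD, n = 2; log2 fold change 2.59, SE 0.46, adjusted p = 0.0292). The call was lost when az replicate 2, 3 or 4 or mz replicate 3 was left out (adjusted p = 0.0574 to 0.162). Ezh2, the methyltransferase of PRC2, had 817, 886 and 1193 reads in az and 644 and 525 in mz (adjusted p = 0.467). The abundant histone binding subunits Rbbp4 and Rbbp7 had log2 fold changes of 0.24 and 0.29 (adjusted p = 0.564 and 0.471). The median over the 33 genes was 0.41 on the log2 scale.

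Genes of retinoic acid synthesis, breakdown and reception gave 16 tested genes (median log2 fold change 0.31). Of these, 0 were called, against 3.00% of all tested genes. Aldh1a3, an enzyme of retinoic acid synthesis, had 2053, 796 and 1671 reads in az and 166 and 471 in mz (log2 fold change 1.92, SE 0.56, adjusted p = 0.118). Rarg, the retinoic acid receptor gamma of cartilage, had 806, 658 and 910 reads in az and 1022 and 1194 in mz (log2 fold change -0.77, adjusted p = 0.176). Cyp26b1, an enzyme of breakdown, had 81, 99 and 435 reads in az and 692 and 877 in mz (log2 fold change -2.30, adjusted p = 0.116). Crabp1 had 1840, 723 and 1107 reads in az and 140 and 0 in mz (log2 fold change 3.90, adjusted p = 0.175). Aldh1a1 and Aldh1a2, also enzymes of synthesis, had most of their reads in az replicate 2, as Hoxd8 did, and were not called. Unlike Hoxd8, both also had reads in az replicate 4. Aldh1a1 had 228, 0 and 21 reads in az and 0 and 0 in mz (adjusted p = 0.228). Aldh1a2 had 188, 0 and 19 reads in az and 0 and 0 in mz (adjusted p = 0.239).

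A list of ParaHox genes, caudal genes and other homeobox relatives of the Hox genes outside the clusters was mostly silent as well. Of 11 genes, 8 were at 0 in every library (72.7%, against 28.0% of all genes). Among them were Cdx1, Cdx2 and Cdx4, which switch on trunk Hox genes in the embryo. The genes with reads were Meox1, Meox2 and Gbx2, none of them a ParaHox or caudal gene. Gbx2 had 37 reads in mz replicate 3 alone. The 2 tested genes were Meox1 and Meox2, of somites and limb muscle, and neither was called. Meox1 had 56, 44 and 56 reads in az and 0 and 0 in mz (adjusted p = 0.126), and Meox2 had 440, 330 and 704 reads in az and 246 and 1 in mz (adjusted p = 0.542).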

How the data were processed

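The authors trimmed single-end poly(A) reads with Trimmomatic 0.32 and mapped them to mm10 with SHRiMP. No source used here names the counting tool or its use of strand. The deposited counts are raw reads per gene symbol. The deposited FPKM were scaled by the authors for gene length and mapped fragments, with 0.1 as the lowest value. The authors' table of called genes holds their DESeq fold changes and p-values and was not used. Mature zone replicate 4 mapped poorly by its labels and was left out by the authors.

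The edgeR 4.0.16 fit took genes with 10 or more counts in 2 or more libraries and ran in R 4.3.3 (TMM, glmQLFit, glmQLFTest, zone only, 3 residual degrees of freedom). Calls were made at 0.05 on p-values adjusted by Benjamini-Hochberg. Log2 fold changes are articular over mature zone. Detection meant at least 1 count. A zone at 0 was bounded by 3 counts over the zone. Other settings used DESeq2 1.42.0 and limma 3.58.1. Figures were drawn with matplotlib 3.10.9, and tables were made with pandas 2.3.3 and scipy 1.17.1 in Python 3.11.15. Positions and sequences come from RefSeq, and exons and gene strands from the GENCODE annotation of GRCm38.

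The members and lists were chosen with earlier results of these data known. Named by rule were each detected Hox gene and, of each list, the 2 most abundant tested members and up to 4 called ones. Outside this rule, and chosen after their values were seen, were the neighbours within 500 kb, the homeobox families, Myod1, Pbx4, Meis1, Meis2, Ezh2, Aldh1a1, Aldh1a2, Gbx2, the Cdx genes, Evx1, Evx2, Msx1, Hbb-b1, 1700109F18Rik and Mir10b. So were Myog, Meis3, Pknox2, Cbx2, Cbx7, Cbx8, Cyp26b1 and Crabp1. Some genes are withheld and not reported here, and list counts outside the Hox clusters leave them out.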

Additional observations from a re-analysis of the deposited data

How the results depend on the processing

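No Hox gene was called under any setting run, and 0 were detected in the mature zone under every definition of detection. Hox genes entered the fit only in the settings without a filter, so no call was possible in the others. The number detected in the articular zone, 5 with at least 1 count, was 1 with at least 3 counts in a library, 1 with at least 10, 1 by FPKM above its lowest value and 0 when a read was asked of every library; leaving out each library in turn gave 2 to 4. The summed level in the articular zone, 0.914 CPM, was 1.00 with raw library totals, 0.0881 without Hoxd8 and 0.132 to 1.34 with each library left out. No Hox gene was tested under the main filter, so fitted zone differences of Hox genes exist only without the filter. The number of genes called between the zones, 393, was 593 with no low count filter, 1802 with DESeq2, 1949 with DESeq2 and no filter (a setting chosen after seeing the data), 1 with limma on log2(FPKM + 1) and no filter, and 32 at an adjusted p under 0.01. Of these, 251, 1036, 1140, 0 and 5 were higher in the articular zone, against 150 of 393. Each library left out in turn gave 13 to 1289 calls: 98, 86 and 13 without articular zone replicate 2, 3 or 4, and 1289 and 139 without mature zone replicate 2 or 3. Other settings gave 318 to 566, of which limma-voom called 86 of 411 and limma on log2(FPKM + 1) 275 of 476 higher in the articular zone. For the 33 named genes outside the clusters, 432 of 511 values under other settings kept their direction and their side of the threshold, 25 passed it newly, 35 no longer passed it and 19 changed direction, all of genes that were not called. The log2 fold change of Cbx5, -0.02, was 0.0795 with upper-quartile normalization, 0.0360 with at least 10 counts in every library, 0.0102 with limma-voom, 0.202 with limma on log2(FPKM + 1), filtered or not, and 0.225 on log2(FPKM + 0.1). Ttn, -0.29, was at 0.0826 with the replicate block, and Alas2, 0.55, at -0.199 with limma-voom. With each library left out in turn, Cbx5 was at -0.305 to 0.348, Col1a1 (-0.23 with all libraries) at -0.440 to 0.00954, Acta1 (-0.25) at -4.41 to 3.07, Ttn at -4.45 to 4.28, Alas2 at -1.21 to 1.02 and Alpl (0.22) at -0.0887 to 0.459. Mature zone replicate 2 gave the highest of these for Cbx5, Acta1 and Ttn when it was left out. Upper-quartile normalization moved the median log2 fold change of all tested genes to 0.168, against 0.0719. Detection is limited by depth: a zero allowed up to 0.194 CPM in a library.

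With the replicate number as a block, 225 genes were called, 80 of them higher in the articular zone, and no Hox gene entered the fit. The numbers 2 and 3 are shared by both zones, but the labels do not tie captures of the same number. The correlation of deviations from the zone mean was 0.132 for replicate 2 and 0.128 for replicate 3. With 2 mature zone libraries these deviations are mirror images, so the mismatched pairs gave -0.132 and -0.128. These values therefore cannot show whether the captures were paired. Among the named genes the block ended the calls of Rnf2, Cd34, Emcn and Matn1 (adjusted p = 0.106, 0.0571, 0.0915 and 0.125) and made calls of Col2a1 and Ibsp (adjusted p = 0.00388 and 0.0306).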
